A study of Drosophila melanogaster with 2 samples.

Results

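The aminoacyl-tRNA synthetase genes of Drosophila melanogaster encode the enzymes that load each amino acid onto its tRNA. They were chosen by symbol, as every protein-coding gene named for an amino acid followed by RS, with or without the suffix -m, together with alpha-PheRS, beta-PheRS and GluProRS. This gave 35 of the 13945 protein-coding genes of the Ensembl annotation, of which 20 encode enzymes without the suffix, called cytoplasmic here, and 15 encode mitochondrial enzymes. In animals some genes of the first kind also supply the mitochondrial enzyme, so the suffix does not divide the proteins fully. The rule uses no measured value, but it was chosen with earlier results of these data known.

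A synthetase joins an amino acid to the end of its own tRNA, and the charged tRNA is then carried to the ribosome by an elongation factor. The enzymes fall into class I and class II, which have unrelated catalytic folds, and all of them are encoded in the nucleus, also those that work in mitochondria. In animals a part of the cytoplasmic enzymes is held together in a multisynthetase complex with scaffold proteins. Medea, the product of Med, is the co-Smad of Drosophila: it enters the nucleus with the receptor-activated Smads of the Dpp and activin pathways and takes part in their binding to DNA.

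Occupancy of Medea was mapped by chromatin immunoprecipitation and sequencing in 1 group, whole embryos aged 0 to 24 h of a line that stably expresses Med with GFP fused to its C terminus. Males and females were pooled, the chromatin was sonicated to fragments of 200 to 800 bp, and the antibody was directed against GFP. The labels number the 2 biological replicates 2 and 3, and there was no second condition. Every embryonic stage and cell type was in the same sample, so a peak carries no information on the cells or the hours in which it formed, and peaks say nothing of the level of transcription.

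Peak lists in build dm6 were used. The reproducible list holds 5867 peaks, and its signal, the authors' value per peak on a scale not given in the sources used here, runs from 164.6 to 8099 with a median of 282.0. This value is called the joint signal. The list was identical to the 5867 strongest peaks of a relaxed call on the joined replicates, which means that 1 replicate can supply most of a peak's signal. The relaxed list of each replicate holds 30000 peaks, and the 5867 strongest of each served as the replicate's own list of strong peaks. Per the deposited manifests, 1 control file served both replicates, and an error in it would touch both. A promoter summit is a peak summit within 1000 bp of any annotated transcription start site (TSS) of the gene.

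The upstream sequences of the genes on which the results turn are shown first. The genes LeuRS-m, SerRS, GluProRS and ArgRS carried the strongest promoter peaks of the 35. IleRS, AlaRS, beta-PheRS, ThrRS and TrpRS were added after their values were seen: IleRS, AlaRS and TrpRS for a DNA replication-related element (DRE), beta-PheRS for a Motif 1 core under its summit, ThrRS as an occupied promoter with no match, and TrpRS also as a promoter with no peak in the reproducible list. Each runs 5′ to 3′ on the strand of the gene and ends with the base before its outermost TSS, from the RefSeq genome of Release 6 (dm6). It holds only bases in no annotated exon, up to 250. Between SerRS and its neighbour only 7 such bases exist, and none is printed. Capitals mark every match, on either strand, to one of 10 motifs: the Smad box CAGAC, the Smad-related letters GGCGCC and GCCGNC, the DRE TATCGATA, its core CGATA, the E-box CACGTG, the Motif 1 core GGTCACAC, an ATF4 site TGATGCAA, the GAGA letters GAGAG and the Zelda letters CAGGTAG. A DRE match always contains CGATA on both strands, so those counts overlap.
LeuRS-m, chr3L:4825688-4825852, plus strand: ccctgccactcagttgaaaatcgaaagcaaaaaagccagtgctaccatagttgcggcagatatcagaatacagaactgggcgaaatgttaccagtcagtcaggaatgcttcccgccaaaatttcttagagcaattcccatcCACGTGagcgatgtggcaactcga
GluProRS, chr3R:23958392-23958641, minus strand: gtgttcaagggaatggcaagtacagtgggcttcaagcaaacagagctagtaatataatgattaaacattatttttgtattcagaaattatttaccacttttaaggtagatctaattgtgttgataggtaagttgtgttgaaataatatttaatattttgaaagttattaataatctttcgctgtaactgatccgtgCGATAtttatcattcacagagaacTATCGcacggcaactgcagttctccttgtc
ArgRS, chrX:15844146-15844395, minus strand: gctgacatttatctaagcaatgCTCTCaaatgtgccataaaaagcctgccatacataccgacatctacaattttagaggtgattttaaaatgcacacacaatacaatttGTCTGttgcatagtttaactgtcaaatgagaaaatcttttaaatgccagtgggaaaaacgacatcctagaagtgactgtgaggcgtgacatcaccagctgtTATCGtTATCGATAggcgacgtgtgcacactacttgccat
IleRS, chr3L:22288415-22288664, plus strand: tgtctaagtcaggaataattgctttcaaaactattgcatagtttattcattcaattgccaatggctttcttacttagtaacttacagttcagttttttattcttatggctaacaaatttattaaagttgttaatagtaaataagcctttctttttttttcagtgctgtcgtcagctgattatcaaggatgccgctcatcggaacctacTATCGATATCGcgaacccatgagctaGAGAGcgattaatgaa
AlaRS, chr2L:8381765-8381820, minus strand: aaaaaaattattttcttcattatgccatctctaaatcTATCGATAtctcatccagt
beta-PheRS, chr3R:24252680-24252825, minus strand: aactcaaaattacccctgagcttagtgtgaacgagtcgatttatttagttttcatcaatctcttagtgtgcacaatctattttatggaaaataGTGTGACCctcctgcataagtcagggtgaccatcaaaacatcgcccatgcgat
ThrRS, chr2L:12103501-12103750, plus strand: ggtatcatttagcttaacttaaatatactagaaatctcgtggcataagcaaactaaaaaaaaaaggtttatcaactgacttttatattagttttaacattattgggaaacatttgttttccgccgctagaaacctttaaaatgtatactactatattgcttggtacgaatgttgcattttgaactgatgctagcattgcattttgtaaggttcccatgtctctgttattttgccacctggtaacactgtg
TrpRS, chr3R:9266905-9267018, minus strand: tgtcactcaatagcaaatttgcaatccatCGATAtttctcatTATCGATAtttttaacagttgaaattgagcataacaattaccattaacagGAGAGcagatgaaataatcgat

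Medea had a promoter summit at 15 of the 35 synthetase genes in the reproducible list, among them the genes of the seryl, arginyl, isoleucyl and glutamyl-prolyl enzymes of the cytoplasm and the leucyl and arginyl enzymes of mitochondria. The share was 42.9% (Wilson 95% interval 27.98 to 59.14), against 31.3% of all protein-coding genes. The interval contains the share of all genes. Intervals here cover the counting of genes only, and neighbouring genes can share 1 summit.

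Cytoplasmic enzymes had a promoter summit at 11 of 20 genes, 55.0% (interval 34.21 to 74.18), and mitochondrial enzymes at 4 of 15, 26.7% (10.9 to 51.95). The difference was 28.3 percentage points, with a Newcombe 95% interval from -4.433 to 53.13 that includes 0. The interval of the cytoplasmic genes begins just above the 31.3% of all genes, and that of the mitochondrial genes contains it. Under 5 of 11 other settings the cytoplasmic interval also contains the share of all genes. Among them are the strongest peaks of replicate 3 (29.93 to 70.07, against 31.8%) and the genes with 1 TSS (17.71 to 64.48, against 24.9%). Over genes of the other translation machinery the shares were 78.3% of 92 cytoplasmic ribosomal protein genes (68.79 to 85.46) and 52.1% of 73 mitochondrial ones (40.78 to 63.12). The order of cytoplasmic above mitochondrial was thus the same in both families, and neither share of the synthetases reached that of the ribosomal proteins of its compartment, although the intervals overlap.

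Each replicate alone gave a similar picture. Among the strongest peaks of replicate 2, 14 of 35 synthetase genes had a promoter summit (40.0%, against 29.7% of all genes), 10 of them cytoplasmic and 4 mitochondrial. Among the strongest peaks of replicate 3 the count was 13 of 35 (37.1%, against 31.8%), 10 cytoplasmic and 3 mitochondrial. All of these genes were among the 15 of the reproducible list: AspRS was missing from the strong peaks of replicate 2, and AlaRS and SerRS-m from those of replicate 3.

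In the much longer relaxed lists most synthetase genes had a summit, but so did most genes. Replicate 2 held a promoter summit at 28 of 35 (80.0%, against 60.7% of all genes), with 18 of 20 cytoplasmic and 10 of 15 mitochondrial genes. Replicate 3 held one at 27 of 35 (77.1%, against 63.2%), with 19 of 20 and 8 of 15. For the cytoplasmic genes the interval lay above the share of all genes in both replicates, 69.9 to 97.21% and 76.39 to 99.11%. For the mitochondrial genes it contained that share, 41.71 to 84.82% and 30.12 to 75.19%.

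**Figure D1:**
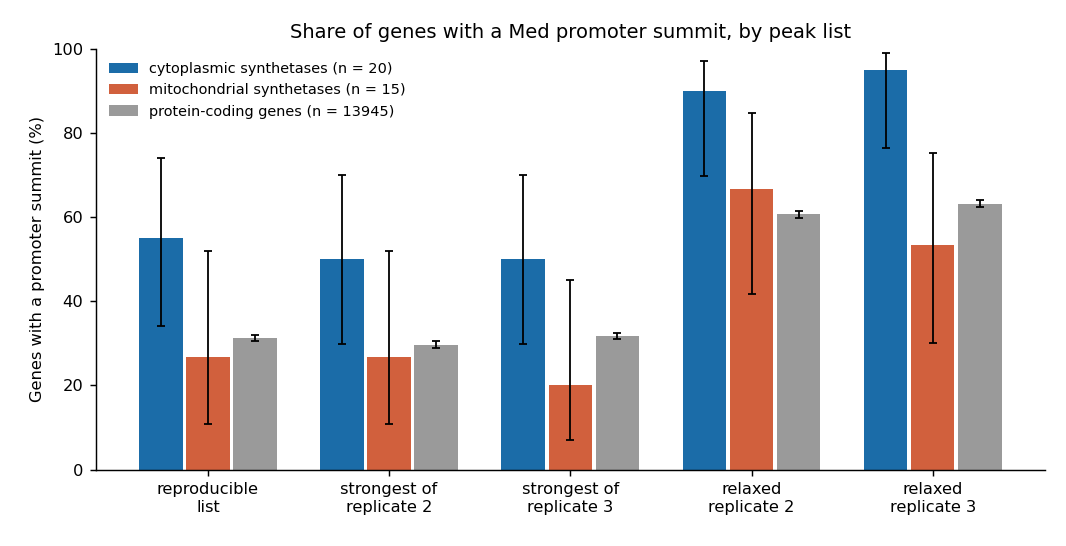
Share of genes with a promoter summit (%, bars, with Wilson 95% intervals) in the reproducible list, in the 5867 strongest peaks of each replicate and in the relaxed lists, for 20 cytoplasmic and 15 mitochondrial synthetase genes and all 13945 protein-coding genes. The cytoplasmic bar is the tallest of its group in every list, from 50% to 95%, and in the first 3 groups its interval begins at 34.21%, 29.93% and 29.93%, close to the bar of all genes.

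The strongest promoter peak of a cytoplasmic enzyme belonged to SerRS (FBgn0031497), which charges serine tRNAs. It lay on 2L from 3037202 to 3037574 scoring 885.1 jointly, 479.1 in replicate 2 and 410.0 in replicate 3, and ranked 453 of 5867. Its summit was 29 bp inside the gene and 37 bp from the TSS of CG17260, whose start lies 8 bp away on the other strand. The summit therefore cannot be given to either gene.

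Next came GluProRS (FBgn0005674), whose single protein charges both glutamate and proline tRNAs, with a peak on 3R from 23958335 to 23958555. It scored 835.9 jointly, 385.9 in replicate 2 and 433.1 in replicate 3, and the summit lay 66 bp upstream of the TSS. A further reproducible peak of 565.9 had its summit 265 bp upstream, 5 bp from the TSS of AP-1sigma, the gene of a clathrin adaptor subunit. In the printed sequence the summit of the stronger peak lies between AP-1sigma and the nearest CGATA, which begins 54 bp upstream of GluProRS.

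ArgRS (FBgn0027093), the arginyl enzyme, had its peak on X from 15844173 to 15844463, with 721.0 jointly, 376.6 in replicate 2 and 350.8 in replicate 3. The summit was 198 bp upstream and nearer to CG8578, at 133 bp. The DRE of the printed sequence begins 34 bp upstream of ArgRS and its Smad box, read on the other strand as GTCTG, 141 bp upstream, and neither contains the summit.

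IleRS (FBgn0027086), the isoleucyl enzyme, had a peak on 3L from 22288431 to 22288670 with 576.8 jointly, 261.1 in replicate 2 and 298.2 in replicate 3. Its summit was 91 bp upstream, and Hem, a subunit gene of the actin-regulating WAVE complex, had a TSS 379 bp away. The DRE of IleRS begins 42 bp upstream, between the summit and the gene. All 4 of these genes were among the strong peaks of both replicates.

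The remaining occupied cytoplasmic genes had lower peaks. The gene beta-PheRS (FBgn0039175), which encodes the beta subunit of the phenylalanyl enzyme, had a peak on 3R from 24252629 to 24252830 with 470.4 jointly, 202.5 in replicate 2 and 270.6 in replicate 3. Its joint summit, 49 bp upstream, fell inside the Motif 1 core of the printed sequence, which runs from 53 to 46 bp upstream. The summit of replicate 2, 50 bp upstream, also did, but that of replicate 3, 27 bp upstream, lay outside it. No other gene had a TSS within 1000 bp of the joint summit. ThrRS (FBgn0027081), the threonyl enzyme, had a peak on 2L from 12103524 to 12103749 with 436.0, 216.6 and 223.6 in the same order, 108 bp upstream and 358 bp from Patsas. AsnRS (FBgn0086443), the asparaginyl enzyme, had a peak on 2L from 19131898 to 19132103 with 429.4, 177.5 and 264.4, 28 bp upstream and 341 bp from the dynactin subunit gene DCTN6-p27. These 3 genes thus sat at nearly the same level of the list, ranks 1371, 1563 and 1595.

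At ValRS and AspRS the summit lay closer to another gene. ValRS (FBgn0027079), the valyl enzyme, had a peak on 2R from 13198335 to 13198470 scoring 251.2 jointly, 120.9 in replicate 2 and 135.7 in replicate 3, but its summit was 471 bp upstream of ValRS and 42 bp from Kdm4B, a histone demethylase gene. AspRS (FBgn0002069), the aspartyl enzyme, had a peak on 2R from 12879775 to 12880150 scoring 232.6 jointly and 115.2 in replicate 3. Replicate 2 held no relaxed peak that overlapped it, so this call rests on replicate 3. The summit was 321 bp upstream of the nearest of the 3 TSSs of AspRS and 165 bp from Nmda1. A weaker peak of 203.9 had its summit 121 bp upstream of that same TSS and 67 bp from Nmda1. AspRS is annotated from 12877004 to 12883168 on the plus strand. Both summits, at 12879963 and 12880163, thus lie inside the gene, upstream of an internal TSS.

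HisRS and AlaRS stood near the end of the list. HisRS (FBgn0027087), the histidyl enzyme, had a peak on X from 18515210 to 18515585 with 184.6 jointly, 69.53 in replicate 2 and 113.7 in replicate 3. The summit was 30 bp upstream, and a transcript of Bx, the gene of a LIM-only protein, starts at the same annotated base. AlaRS (FBgn0027094), the alanyl enzyme, had a peak on 2L from 8381591 to 8381966 with 171.6, 68.45 and 88.03. Its summit, 15 bp upstream, fell inside the DRE that runs from 19 to 12 bp upstream in the printed sequence. Neither replicate placed its own summit in the DRE. That of the overlapping peak lay 117 bp upstream in replicate 2, and 6 bp downstream of the nearest TSS in replicate 3. A far stronger peak of 608.9 jointly, with 296.5 in replicate 2 and 314.1 in replicate 3, lay 1069 bp upstream of AlaRS and 26 bp from CG13392, outside the promoter distance.

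Among mitochondrial enzymes the highest signal was at LeuRS-m (FBgn0027085), which charges leucine tRNAs in mitochondria and had the strongest promoter peak of the 35 genes. The peak lay on 3L from 4824906 to 4825159 with 899.7 jointly, 451.9 in replicate 2 and 445.5 in replicate 3, at rank 436. It was also the least close, 824 bp upstream of LeuRS-m and inside the transcribed part of the neighbour Dhc64C, the gene of the cytoplasmic dynein heavy chain, 658 bp from its TSS. A weaker peak on 3L from 4825579 to 4825954 spanned the stretch printed above and reached into both genes, and its summit lay within that stretch, 86 bp from LeuRS-m and 80 bp from Dhc64C. It had 308.5 jointly, 102.1 in replicate 2 and 210.5 in replicate 3.

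ArgRS-m (FBgn0037526), the mitochondrial arginyl enzyme, had a peak on 3R from 7886816 to 7887081 with 521.8 jointly, 260.3 in replicate 2 and 256.2 in replicate 3. The summit was 127 bp upstream of ArgRS-m and 185 bp from CG17816. PheRS-m (FBgn0275436), which works as a single chain, had a peak on 2R from 13968093 to 13968277 with 296.6, 133.7 and 139.2, 117 bp upstream. SerRS-m (FBgn0021750) had the weakest peak of the 15 genes, on 3R from 15340085 to 15340460 with 169.1, 68.35 and 88.07, 394 bp upstream. No other gene had a TSS within 1000 bp of these last summits, at PheRS-m and SerRS-m. The signals of the 4 mitochondrial genes, 169.1 to 899.7, spanned as wide a range as those of the 11 cytoplasmic genes, 171.6 to 885.1, with medians of 409.2 and 436.0.

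**Figure D2:**
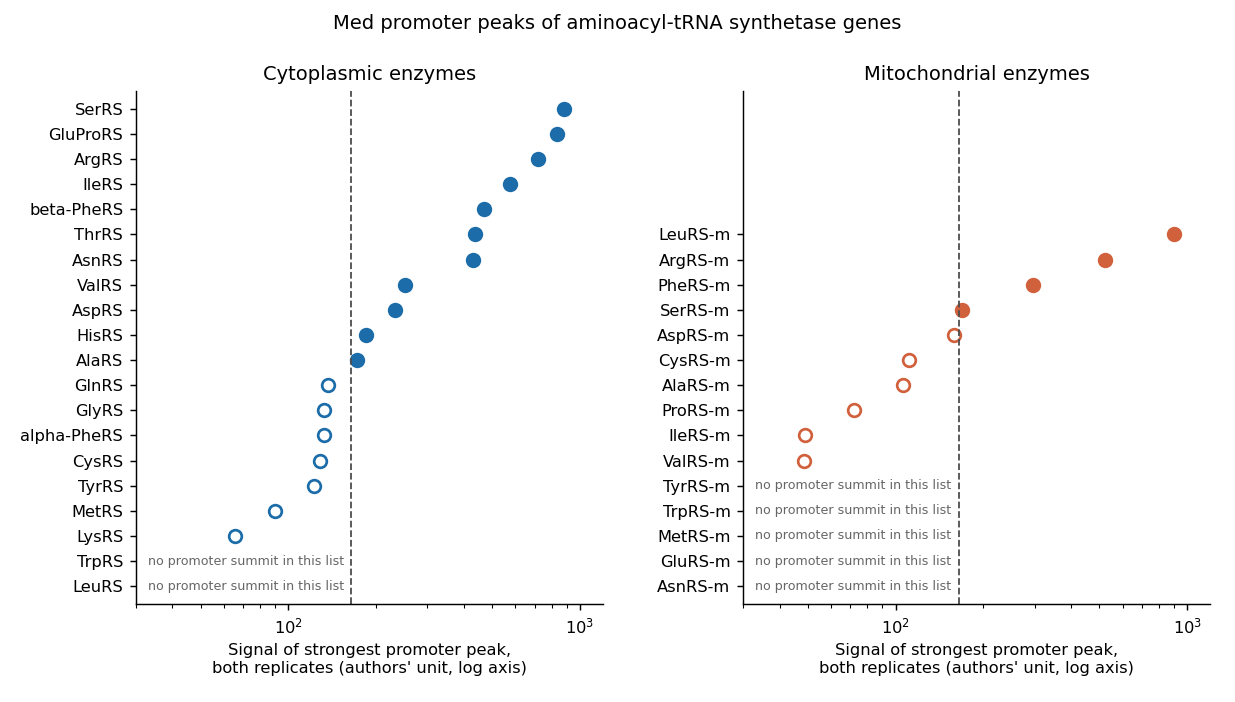
Signal of the strongest promoter peak of each synthetase gene in the joint list of both replicates (authors' unit, log axis). Filled points are in the reproducible list, which begins at 164.6 (dashed line), open points are in the relaxed list only, and genes with no promoter summit in it are named as such. The filled points of both compartments reach from 171.6 or lower up to 885.1 or higher, and AspRS-m at 158.9 is the open point closest to the line.

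Over the 15 occupied genes the median promoter signal was 436.0, against 329.4 over all 4360 occupied genes. Signal in replicate 3 relative to replicate 2, as a log2 ratio, was centred on a median of 0.17 (SD 0.27, 14 genes), with SerRS lowest at -0.22 and HisRS highest at 0.71. For all 4177 occupied genes with both values the median was 0.31 with an SD of 0.72. The replicate lists can differ in scale, so the ratio has no fixed zero.

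**Figure D3:**
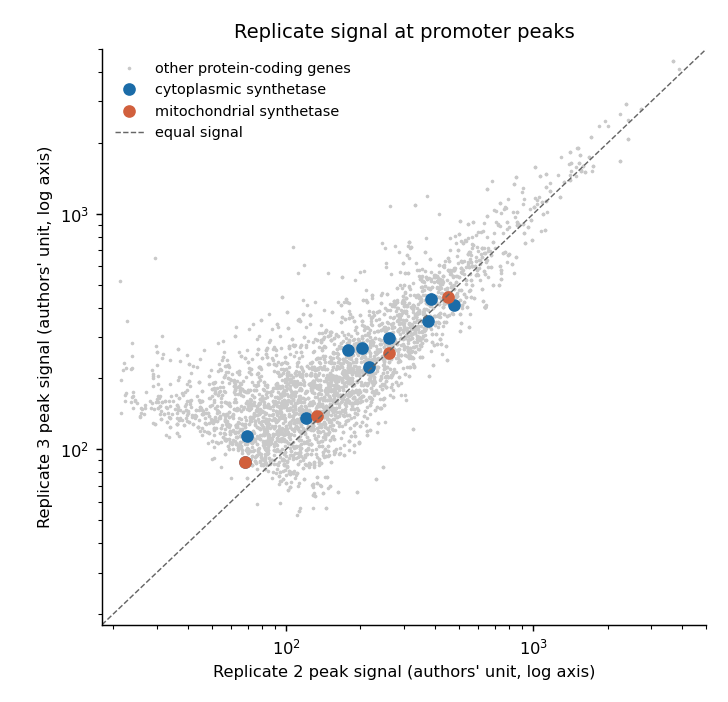
Signal of the replicate 2 peak (x, log axis) and the replicate 3 peak (y, log axis) that overlap the strongest promoter peak of a gene, in the authors' unit, for 14 synthetase genes (colours by compartment) and other protein-coding genes (grey). The synthetase genes span 68.35 to 479.1 on the x axis and 88.03 to 445.5 on the y axis, close to the line of equal signal.

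Summits sat just upstream of the start sites. Of the 15 strongest promoter summits 14 were upstream of the nearest TSS of the gene (93.3%, against 82.4% of all occupied genes), and the median distance was 108 bp, against 130 bp. Another gene shared the summit within 1000 bp in 12 of 15 (80.0%, against 61.8%), and its TSS was the nearer one in 4, LeuRS-m, ArgRS, ValRS and AspRS (26.7%, against 30.8%). Cytoplasmic genes shared it in 10 of 11 cases and mitochondrial genes in 2 of 4.

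**Figure D4:**
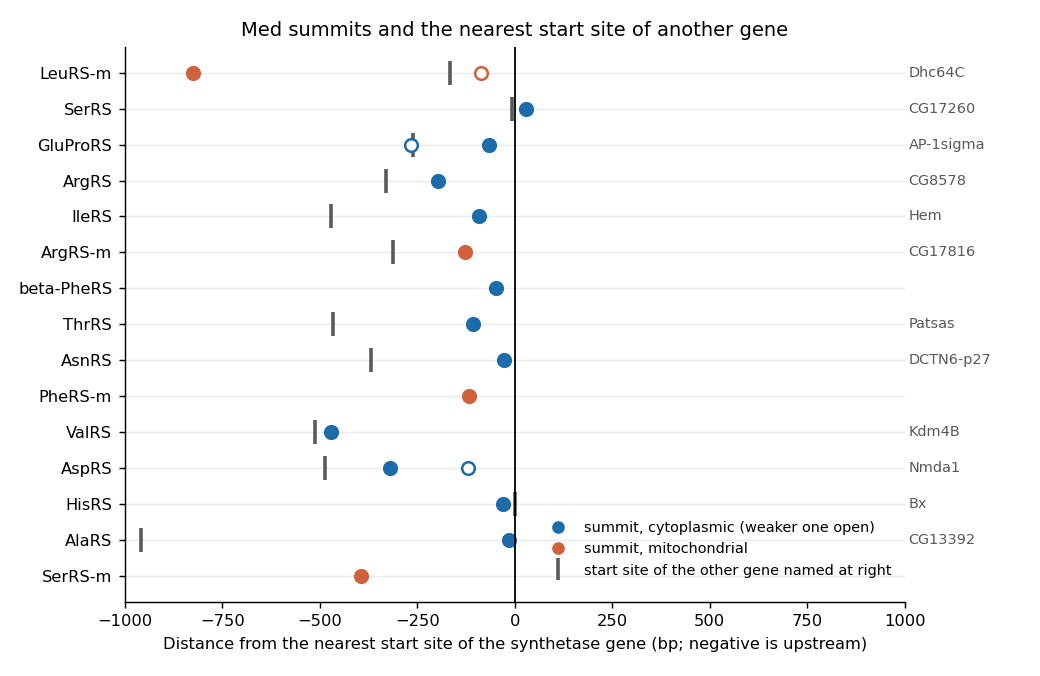
Promoter summits of the 15 occupied synthetase genes by distance from the nearest TSS of the gene (bp, negative is upstream), ordered by signal, with a tick at the TSS of the nearest other gene. Filled points are the strongest peaks and open points the weaker ones of LeuRS-m, GluProRS and AspRS. Most summits lie between the tick and 0, while the strongest of LeuRS-m lies beyond its tick and that of ValRS beside it.

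Synthetase genes often have a divergent neighbour, a gene on the other strand whose TSS lies within 1000 bp upstream. This held for 24 of 35 (68.6%), 17 of 20 cytoplasmic (85.0%) and 7 of 15 mitochondrial (46.7%), against 36.2% of all genes. Across the genome, genes with such a neighbour had a promoter summit more often, 52.3% against 19.3% of those without. A summit between such neighbours counts for both. The synthetase genes with a divergent neighbour were at 45.8% (11 of 24, interval 27.89 to 64.93), which contains the 52.3% of all such genes. Cytoplasmic genes with one were at 52.9% (9 of 17), next to the same 52.3%, and mitochondrial genes with one at 28.6% (2 of 7, interval 8.222 to 64.11). Without one, 2 of 3 cytoplasmic and 2 of 8 mitochondrial genes were occupied. The arrangement of the genes thus moved with the difference between the compartments, and its part in it was not tested.

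**Figure D5:**
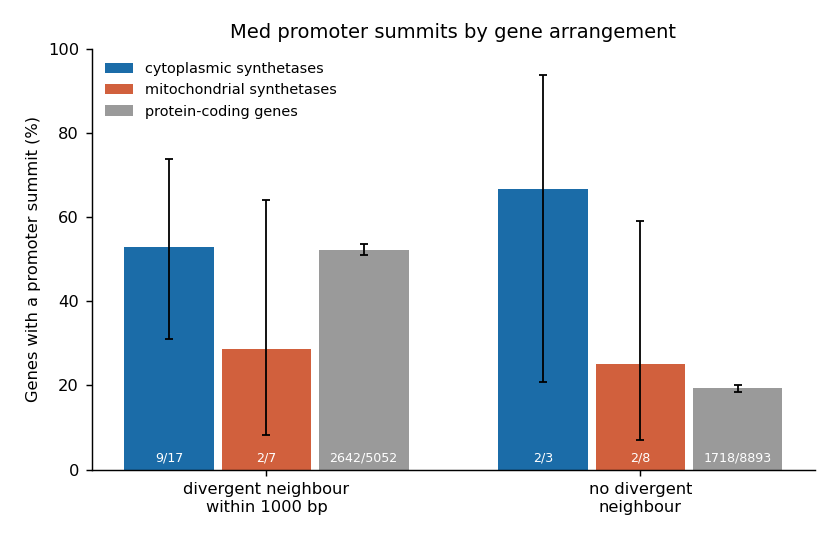
Share of genes with a promoter summit in the reproducible list (%, bars, with Wilson 95% intervals) by the presence of a divergent neighbour within 1000 bp, for cytoplasmic and mitochondrial synthetase genes and all protein-coding genes, with counts at the foot of each bar. Cytoplasmic synthetases with a divergent neighbour (52.9%) stand level with all genes of that kind (52.3%), and those without number only 3.

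The number of start sites also differed. Of the cytoplasmic genes 7 had at least 2 TSSs, and 6 of these were occupied, AlaRS, AspRS, GluProRS, SerRS, ThrRS and ValRS but not LysRS. The 2 mitochondrial genes of that kind, AspRS-m and ValRS-m, were not. Among genes with 1 TSS the shares lay closer, 38.5% of 13 cytoplasmic (interval 17.71 to 64.48) and 30.8% of 13 mitochondrial (12.68 to 57.63), against 24.9% of all genes with 1 TSS. More start sites give more sequence in which a summit can count, and over all genes those with at least 2 were occupied at 48.8%. The part of the number of start sites in the difference between the compartments was not tested.

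By chromosome arm, 4 of 6 genes on 2L, 4 of 7 on 3R, 3 of 8 on 2R, 2 of 4 on X and 2 of 10 on 3L were occupied. Of all protein-coding genes on these arms 29.4% to 33.3% were.

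The 20 genes outside the reproducible list were not all empty. Cytoplasmic enzymes among them were alpha-PheRS, CysRS, GlnRS, GlyRS, LeuRS, LysRS, MetRS, TrpRS and TyrRS. In the relaxed joint list 13 of the 20 had a promoter summit, with signals from 48.48 to 158.9, under the 164.6 at which the reproducible list begins. The share of all unoccupied genes in that list was not computed, so the count cannot be called high or low. The relaxed replicate lists held a promoter summit at 60.7% and 63.2% of all genes. Those are other lists, and their shares include the occupied genes, so they are no background for the 13 of 20. AspRS-m came nearest to the limit of 164.6 with 158.9, and SerRS-m lay just above it with 169.1. The outcome of both thus turns on a small difference in signal. Among cytoplasmic genes GlnRS at 137.3, GlyRS at 132.6, alpha-PheRS at 132.3, CysRS at 128.1 and TyrRS at 122.4 followed.

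Of the unoccupied genes 10 had a promoter summit in both relaxed replicate lists, 7 of 9 cytoplasmic and 3 of 11 mitochondrial. The matching share of all unoccupied genes was not computed, so none of these counts can be called high or low. Replicate 2 alone held one at TrpRS (41.21), IleRS-m (41.06), ProRS-m (26.44) and MetRS-m (24.12). Replicate 3 alone held one at LeuRS (61.31) and GluRS-m (32.61). Neither replicate held one at AsnRS-m, TrpRS-m, TyrRS-m or ValRS-m, all mitochondrial. TrpRS carries a DRE that begins 72 bp upstream, as its printed sequence shows, but had no promoter summit in the relaxed joint list.

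For 15 amino acids both compartments have an enzyme of their own gene. Both were occupied for arginine, serine and phenylalanine, although of the cytoplasmic phenylalanyl enzyme beta-PheRS had the summit and alpha-PheRS did not. The cytoplasmic gene alone was occupied for 7 (alanine, asparagine, aspartate, glutamate, isoleucine, proline and valine), of which glutamate and proline both count the 1 gene GluProRS. Leucine was the 1 case with the mitochondrial gene alone, and neither was occupied for cysteine, methionine, tryptophan and tyrosine.

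Counted over the whole gene with 1000 bp on either side, 20 of 35 synthetase genes had a reproducible summit (57.1%, against 38.0% of all genes), 15 of 20 cytoplasmic and 5 of 15 mitochondrial. The median length of the 35 genes was 2727 bp against 2166 bp of all genes, and a longer gene offers more room for a summit. By compartment the medians were 2652 bp for cytoplasmic and 2727 bp for mitochondrial genes, so the group with more summits was the shorter one. The part of gene length was not tested. All but 1 of the summits added in this way lay past the end of the gene, within 249 bp of the TSS of a neighbour. The peak beyond alpha-PheRS, 717.0 jointly with 325.7 in replicate 2 and 397.8 in replicate 3, was 1852 bp from its TSS and 85 bp from that of CG17982. The peak beyond GlnRS (505.0) was 120 bp from CG11858, and that beyond GlyRS (306.0) was 4 bp from Ctps, the CTP synthase gene. The peaks beyond SerRS-m (278.6), MetRS (228.7) and TyrRS-m (209.5) were 249, 92 and 11 bp from Nagk, CG15099 and CG3594. HisRS held the 1 that was inside the gene, with a joint signal of 220.4.

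By enzyme class, 9 of 16 class II genes (56.2%, interval 33.18 to 76.9) and 5 of 18 class I genes (27.8%, 12.5 to 50.87) had a promoter summit, against 31.3% of all genes. GluProRS holds an enzyme of each class and was counted in neither. The class I genes were ArgRS, IleRS, ValRS, ArgRS-m and LeuRS-m. The intervals overlap, that of class I contains the share of all genes, and the difference was not tested.

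Of the 8 synthetases of the multisynthetase complex 4 were occupied (interval 21.52 to 78.48%, which contains the 31.3% of all genes). These were GluProRS, ArgRS, IleRS and AspRS, while LeuRS, MetRS, GlnRS and LysRS were not. The scaffold genes AIMP1, AIMP2 and AIMP3 had no promoter summit either. Among 8 genes that work beside the synthetases 2 did (interval 7.148 to 59.07%, which also contains 31.3%), GatA and GatC, which encode subunits of the amidotransferase that makes mitochondrial glutaminyl-tRNA. GatA had a joint signal of 711.3 (256.9 in replicate 2 and 455.9 in replicate 3), but P5cr, a proline synthesis gene, lay nearer to the summit, at 21 bp. GatC had 234.1 (126.6 and 105.5 in the same order) and shared its summit at 29 bp with PolG2 and with Polr2C at 203 bp.

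Elongation factors and their subunits had a promoter summit at 6 of 11 genes (54.5%, interval 28.01 to 78.73, which contains the 31.3% of all genes). The strongest were eEF1gamma with a joint signal of 1140 (367.3 in replicate 2 and 788.2 in replicate 3), eEF1alpha1 with 756.4 (352.2 and 435.3) and eEF2 with 443.0 (120.6 and 329.9), and none of these shared its summit. The mitochondrial factors mEFTu2 had 245.0 (121.2 and 122.3) and mEFTs 165.3 (29.38 and 128.2). The summit of eEF1beta (188.5, with 139.6 in replicate 3 and no peak in replicate 2) was 998 bp from its TSS and 490 bp from Psi.

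In the response to amino acid shortage 4 of 10 genes had one (interval 16.82 to 68.73%, which contains the 31.3% of all genes). Sesn, the sestrin gene, ranked 114 with 1627 jointly (649.7 in replicate 2 and 981.7 in replicate 3) and shared its summit with CG46429. Thor, the gene of the translation inhibitor 4E-BP, had 464.7 (124.4 and 340.5) with no other gene near. The gene of the ATF4 homologue, crc, had 259.4 (103.1 and 160.0), but the summit was 783 bp from its TSS and 33 bp from Mondo. Gcn2, the kinase that binds uncharged tRNA, had 259.0 (56.36 and 203.3), with Ugt35D1 nearer at 102 bp.

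The windows of 50 bp on either side of the strongest promoter summits of the 15 genes held no Smad box, against 10.5% of the windows at all 3657 promoter summits of the reproducible list. A count of 0 of 15 allows a share of up to 20.0%, so a lower share than that of all summits was not detectable with 15 windows. In windows of 100 bp on either side the Smad box was found at ArgRS, ArgRS-m and beta-PheRS, 20.0% against 19.9% of all windows. GCCGNC was also at 0, against 9.38% (6.67%, at AlaRS, against 18.9% in the wider windows), and GGCGCC was found once, at PheRS-m (6.67%, against 2.6%). CGATA was found in 6 windows (40.0%, interval 19.82 to 64.25, against 26.8%), at AlaRS, AsnRS, AspRS, GluProRS, ValRS and beta-PheRS. The full DRE stood at AlaRS alone (6.67%, against 5.28%). The Motif 1 core was found at ValRS and beta-PheRS (13.3%, interval 3.736 to 37.88, against 3.39%) and GAGAG at ArgRS and AsnRS (13.3%, against 11.2%). No window held the E-box, the ATF4 site or the Zelda letters, which 1.45%, 0.164% and 0.383% of all windows held.

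In the 250 bases upstream of the outermost TSS, now with exons included, a DRE was found at AlaRS, ArgRS, IleRS and TrpRS, 4 of 35 genes or 11.4%, against 8.0% of all genes. Among occupied genes the share was 20.0% of 15 synthetases and 12.7% of all. CGATA was found at 19 of 35 (54.3%, against 42.6%) and the Smad box at 9 of 35 (25.7%, against 22.6%). Of the 9 genes with a Smad box 3 were occupied, ArgRS, ArgRS-m and AspRS. Over all protein-coding genes 941 of the 3150 with the box were occupied. The box stood at 3 of 15 occupied synthetase genes (20.0%, against 21.6% of all occupied genes). Of the unoccupied synthetase genes 6 of 20 had it, against 23.0% of all unoccupied genes. At AspRS the Smad box lies before the outermost TSS, while the summits lie inside the gene, before another TSS. A match of letters is not a bound site, and a window without one says nothing of the factor.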

How the data were processed

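The authors deposited peak lists, which per the deposited manifests are narrowPeak files, and the signal per peak is the authors' own. Build dm6 was used, and the lists in dm3 were not used here. For the aligner, the peak caller, their versions and the threshold behind the reproducible list, nothing is stated in the sources used here. Read totals were not used here, so depth is unknown. Summits were placed by the other deposited column, the offset from the peak start.

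Promoter summits were computed against the Ensembl annotation of BDGP6.54 (release 115), in which all 35 genes had the start and end of RefSeq. The signal of a replicate at a peak is that of its strongest overlapping relaxed peak. Only signals of 1 list were compared as levels. Shares have Wilson 95% intervals and their difference a Newcombe interval, and no test was made, since genes are not replicates. The members, lists and motifs were chosen with earlier results of these data known. All members are named, with peak values for the occupied ones, every list member with a promoter summit, and neighbours nearer to a summit. SLIMP, mEFG2, HisRS-m and ThrRS-m were listed but matched no symbol (Slimp is counted). The assignment of summits to genes was tested on simulated data. Python 3.11.15, numpy 2.4.6, pandas 2.3.3, scipy 1.17.1 and matplotlib 3.10.9 were used.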

Additional observations from a re-analysis of the deposited data

How the results depend on the processing

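Cytoplasmic stood above mitochondrial synthetases under each alternative: the difference was smallest, 7.7 points, among genes with 1 TSS only (an alternative chosen after seeing the data) and otherwise lay between 15.0 points (the 2933 strongest reproducible peaks) and 33.3 points (a promoter distance of 2000 bp). The share of all genes moved to 23.3% at 250 bp, 27.9% at 500 bp and 36.8% at 2000 bp, where 13, 15 and 16 synthetase genes were occupied. The 2933 strongest peaks left 10 synthetase genes, 7 of them cytoplasmic, and 18.7% of all genes. Peaks in the strong lists of both replicates left 12 synthetase genes, without AspRS, AlaRS and SerRS-m, and 23.6% of all genes. Giving each summit to the nearest gene only left 11 and 22.7%. Peaks that cover a TSS left 9, of which 7 were cytoplasmic and 2 mitochondrial, and 18.3%. With 1 TSS per gene 14 remained, without AspRS, and 29.4%. Genes with 1 TSS only left 9 of 26 (34.6%) and 24.9%. With either replicate left out, the synthetase count was 13 to 14, the share of all genes 29.7% to 31.8%, and the median signal 209.6 to 256.2, on the scales of the replicate lists. The mitochondrial share, below that of all genes under the other alternatives of this section, was above it among the 2933 strongest peaks (20.0% against 18.7%) and genes with 1 TSS (30.8% against 24.9%). In the relaxed lists it was above in replicate 2 (66.7% against 60.7%) and below in replicate 3 (53.3% against 63.2%). In 51 bp windows GGCGCC and GAGAG were at 0 of 15 summits, against 1.01% and 5.91% of all, so both moved from above to below the share of all summits. In windows of 100 bp on either side the Smad box went from 0 to 20.0%, against 19.9%, and the ATF4 site from 0 to 6.67% (AsnRS), against 0.656%. The number of genes limits these shares, and depth cannot be judged from peak lists. No paired analysis was possible because there is only 1 group.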
